A study of Mus musculus with 4 samples.

Results

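The E2F factors, their DP partner and the retinoblastoma family were followed across Lin-Sca1+cKit+ (LSK) cells of mouse bone marrow, the fraction that holds hematopoietic stem cells and multipotent progenitors. The 10 genes were chosen by name and are 10 of the 27998 genes listed in the deposited matrices: the activator factors E2f1, E2f2 and E2f3, the repressor E2f4, the atypical repressors E2f7 and E2f8, the partner Tfdp1 and the pocket protein genes Rb1, Rbl1 and Rbl2. Single-cell 3′ libraries came from 2 control and 2 Nup358 knockout samples. Control mice carried the floxed Nup358 alleles (Nup358 fl/fl) and the knockout mice carried the same alleles with R26-CreERT2, a tamoxifen-regulated Cre expressed in all tissues. Mice were 9 to 12 weeks old, and knockout was induced with tamoxifen on 3 consecutive days. Whether the control mice of these libraries were given tamoxifen is not given in the sources used here. Each library pooled 3 bone marrows, so that a library is a pool and not a single animal. The labels call the controls wild-type.

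E2F factors bind DNA as dimers with a DP protein and drive or hold back genes for DNA synthesis and the G1 to S transition. The pocket proteins Rb1, Rbl1 (p107) and Rbl2 (p130) bind E2Fs and repress their targets until cyclin-dependent kinases phosphorylate them, and Rbl2 with E2f4 forms the DREAM complex with the MuvB core in resting cells. E2f7 and E2f8 bind DNA without a DP partner and repress E2F targets later in the cycle. In blood formation these proteins are known for setting stem cell quiescence and for the last divisions of erythroid cells.

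With filters on detected genes and mitochondrial UMIs and without barcodes that looked copied from another library, 14041 of 25242 barcodes remained: 7830 and 1200 in the 2 controls, 1589 and 3422 in the 2 knockouts. Copied barcodes, those with at least 3 times as many UMIs under the same barcode in another library, took 81.8% of control 2, 65.3% of knockout 1, 18.8% of knockout 2 and 14.8% of control 1, and 6680 barcode sequences occurred in more than 1 library. UMIs were summed per library and given as CPM, the count scaled to a library sum of 1000000 UMIs, from totals of 18846887 to 59033602 UMIs. Knockout against control was tested with edgeR's quasi-likelihood test over all genes, with Benjamini-Hochberg adjusted p-values called under 0.05. Ranbp2, which encodes Nup358, stood at 127 and 101 CPM in controls and 124 and 126 CPM in knockouts, and since 3′ tags lie outside the deleted exon 2, this level does not check the genotype labels.

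Promoter sequences are shown for E2f2, E2f7 and E2f8, the members with the largest differences between S-scored and low-scored cells, for E2f3, which differed most between genotypes over all LSK cells, and for Rbl1, the pocket protein gene with the largest difference between states. Windows of 300 bases, from 250 before to 50 after each annotated start, came from RefSeq on GRCm38.p6. Capitals mark an E2F match, one of the letters TTTCCCGC, TTTCGCGC, TTTGCCGC or TTTGGCGC on either strand.
E2f2 (chr4:136172024-136172323, plus strand): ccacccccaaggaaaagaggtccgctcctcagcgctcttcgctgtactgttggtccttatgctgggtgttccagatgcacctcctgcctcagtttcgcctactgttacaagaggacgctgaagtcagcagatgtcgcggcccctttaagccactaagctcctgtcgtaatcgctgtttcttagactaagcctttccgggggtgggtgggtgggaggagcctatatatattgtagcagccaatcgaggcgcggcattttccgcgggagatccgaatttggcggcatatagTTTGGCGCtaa
E2f3 (chr13:29986014-29986313, minus strand): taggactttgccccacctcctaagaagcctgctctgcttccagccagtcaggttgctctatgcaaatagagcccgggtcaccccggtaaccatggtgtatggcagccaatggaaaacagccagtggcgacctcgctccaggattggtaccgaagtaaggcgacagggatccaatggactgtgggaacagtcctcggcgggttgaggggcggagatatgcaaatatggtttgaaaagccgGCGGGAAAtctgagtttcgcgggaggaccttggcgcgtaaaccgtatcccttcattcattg
E2f7 (chr10:110745189-110745488, plus strand): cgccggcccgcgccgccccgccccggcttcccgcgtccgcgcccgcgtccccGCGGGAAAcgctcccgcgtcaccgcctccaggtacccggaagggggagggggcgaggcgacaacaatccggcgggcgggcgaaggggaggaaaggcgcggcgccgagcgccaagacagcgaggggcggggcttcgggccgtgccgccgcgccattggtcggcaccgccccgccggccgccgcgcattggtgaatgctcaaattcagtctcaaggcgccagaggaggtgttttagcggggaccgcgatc
E2f8 (chr7:48881547-48881846, minus strand): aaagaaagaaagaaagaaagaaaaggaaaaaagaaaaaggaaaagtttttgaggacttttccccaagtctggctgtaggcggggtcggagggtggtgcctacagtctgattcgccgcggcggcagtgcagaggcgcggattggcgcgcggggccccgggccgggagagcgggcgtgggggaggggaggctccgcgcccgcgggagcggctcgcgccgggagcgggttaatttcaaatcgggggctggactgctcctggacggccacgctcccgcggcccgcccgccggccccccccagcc
Rbl1 (chr2:157204485-157204784, minus strand): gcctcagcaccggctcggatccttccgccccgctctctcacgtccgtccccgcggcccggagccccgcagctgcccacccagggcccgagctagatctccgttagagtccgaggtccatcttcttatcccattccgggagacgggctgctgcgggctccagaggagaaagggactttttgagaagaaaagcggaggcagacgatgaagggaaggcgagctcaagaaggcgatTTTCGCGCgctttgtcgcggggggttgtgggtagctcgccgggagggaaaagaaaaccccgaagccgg

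Windows were found for 8 of the 10 members, 11 windows in all, and E2f4 and Rb1 had none. E2F matches lay in windows of 5 members: 11 bases before the start in E2f3, 18 before in Rbl1, 43 before in Tfdp1, 198 before in E2f7 and 39 after in E2f2. Across all 32851 mouse windows of this length 2.26% held a match. The shorter CHR letters TTTGAA and TTCGAA, found at cell cycle promoters bound by MuvB, lay in windows of E2f2 (a second start), E2f3, E2f8 and Rbl2 against 19.2% of all windows, and no E2F match overlapped a CHR match in these windows. The E2f1 window begins downstream of the start that the gene annotation gives, so its lack of a match covers only that window. On mm10, E2f4 spans chr8:105297663-105305370 and Rb1 spans chr14:73183673-73325822.

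Cycling state was the first axis along which the members differed. Cells with at least 2000 UMIs, 13480 in all, were thinned to 2000 UMIs and scored with 42 S-phase and 54 G2/M genes that include no member, and are called S-scored, G2/M-scored or low-scored. Against low-scored cells, 8 of 10 members were higher and 1 was lower in S-scored cells, where 44.4% of 12674 genes were called (21.4% higher and 23% lower). The same counts held in G2/M-scored cells, where 51.4% of genes were called (24.5% higher and 27% lower). The median difference of the 10 members was 0.99 on the log2 scale in S-scored cells and 0.66 in G2/M-scored cells, beside -0.06 over all genes in both. Rb1 passed in neither comparison.

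Among the activators, E2f1, an S-phase inducer, was highest in S-scored cells in every library. Its level in S-scored cells was 77.4 and 61.2 CPM in controls and 49.8 and 60.3 CPM in knockouts, against 19.3, 16.3, 21.7 and 27.1 CPM in low-scored cells and 26.1, 21.2, 26.4 and 28.0 CPM in G2/M-scored cells. All 4 S-scored values lay above all 8 others. The difference was 1.69 ± 0.16 (log2, SE; edgeR adjusted p = 2.1e-05) over low-scored cells and 1.25 ± 0.13 (adjusted p = 0.00026) over G2/M-scored cells, the last a comparison added after the data were seen, in which 5 of 10 members passed against 14.7% of all genes. In G2/M-scored cells E2f1 was 0.44 ± 0.16 above low-scored cells (adjusted p = 0.044), a call lost without control 1 (0.35, adjusted p = 0.11) or without control 2 (0.43, adjusted p = 0.11).

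E2f2, the activator most tied to blood cell proliferation, stood at 2.8 and 2.7 CPM in low-scored control cells and 3.9 and 5.0 CPM in low-scored knockout cells. In S-scored cells it reached 14.8, 11.9, 13.1 and 18.8 CPM in the same order of libraries. The groups of states did not overlap, and the difference was 2.18 ± 0.17 on the log2 scale (adjusted p = 8.6e-07), with 1.75 ± 0.17 in G2/M-scored cells (adjusted p = 3.2e-06). E2f3, the third activator, changed less, by 0.69 ± 0.14 (adjusted p = 0.0012) in S-scored and 0.41 ± 0.14 (adjusted p = 0.023) in G2/M-scored cells. The G2/M call of E2f3 was lost without control 1 (0.23), control 2 (0.41) or knockout 1 (0.43).

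The atypical repressors had the widest range between states. E2f7 stood at 2.2, 1.6, 8.5 and 5.0 CPM in low-scored cells of control 1, control 2, knockout 1 and knockout 2, and at 19.4, 14.6, 21.7 and 26.4 CPM in S-scored cells. Every S-scored sum was above every low-scored sum, a difference of 2.63 ± 0.32 on the log2 scale (adjusted p = 0.00016). In G2/M-scored cells E2f7 kept to a narrow range of 11.7 to 12.5 CPM, 1.86 ± 0.33 above low-scored cells (adjusted p = 0.0012) and 0.77 ± 0.20 below S-scored cells (adjusted p = 0.032). That last difference missed the threshold without control 1 (0.80, adjusted p = 0.12) or knockout 2 (0.63, adjusted p = 0.17).

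E2f8, the other atypical repressor, stood at 6.6, 3.3, 10.8 and 9.9 CPM in low-scored cells, 33.1, 26.4, 38.5 and 32.6 CPM in S-scored cells and 29.3, 31.4, 28.6 and 27.0 CPM in G2/M-scored cells. The log2 difference from low-scored cells was 2.33 ± 0.22 (adjusted p = 2.8e-05) in S-scored and 2.17 ± 0.22 (adjusted p = 3.1e-05) in G2/M-scored cells. Between S-scored and G2/M-scored cells it was 0.16, with a 95% interval from -0.16 to 0.48 (adjusted p = 0.52). E2f4, the classical repressor, was the member with the steadiest level, from 42.2 to 66.5 CPM over all 12 sums, and was 0.34 ± 0.07 higher in S-scored (adjusted p = 0.0023) and 0.52 ± 0.07 higher in G2/M-scored cells (adjusted p = 5.5e-05).

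Tfdp1, which encodes the DP1 partner, was 1.14 ± 0.14 higher on the log2 scale in S-scored cells (adjusted p = 2.2e-05) and 0.81 ± 0.14 higher in G2/M-scored cells (adjusted p = 0.00026). Its levels ran from 4.9 to 9.3 CPM in low-scored, from 13.5 to 16.1 CPM in S-scored and from 9.8 to 12.4 CPM in G2/M-scored cells, so that no state overlapped with another.

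The 3 pocket protein genes went 3 ways. Rbl1, the member of the family known to follow E2F activity, stood at 22.1, 19.7, 24.8 and 18.3 CPM in low-scored cells and 38.9, 36.5, 41.7 and 38.8 CPM in G2/M-scored cells, a log2 difference of 0.96 ± 0.08 (adjusted p = 5.5e-07). In S-scored cells Rbl1 was 0.85 ± 0.08 higher (adjusted p = 2.6e-06). Rbl2, the pocket protein of resting cells, stood at 31.8, 26.8, 25.9 and 28.2 CPM in low-scored cells and 19.8, 19.4, 23.4 and 20.8 CPM in S-scored cells. It was the only member lower in cycling cells, by -0.41 ± 0.09 in S-scored (adjusted p = 0.0017) and -0.36 ± 0.08 in G2/M-scored cells (adjusted p = 0.0027), and no low-scored sum overlapped with a cycling one. Rb1 differed from low-scored cells by 0.13 (95% interval -0.16 to 0.42, adjusted p = 0.45) in S-scored cells and by -0.29 (-0.58 to -0.00, adjusted p = 0.083) in G2/M-scored cells. Between S-scored and G2/M-scored cells Rb1 differed by 0.42 ± 0.11 (adjusted p = 0.023), and by 0.40 without control 1, 0.47 without control 2 and 0.32 without knockout 2, none past the threshold.

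**Figure D1:**
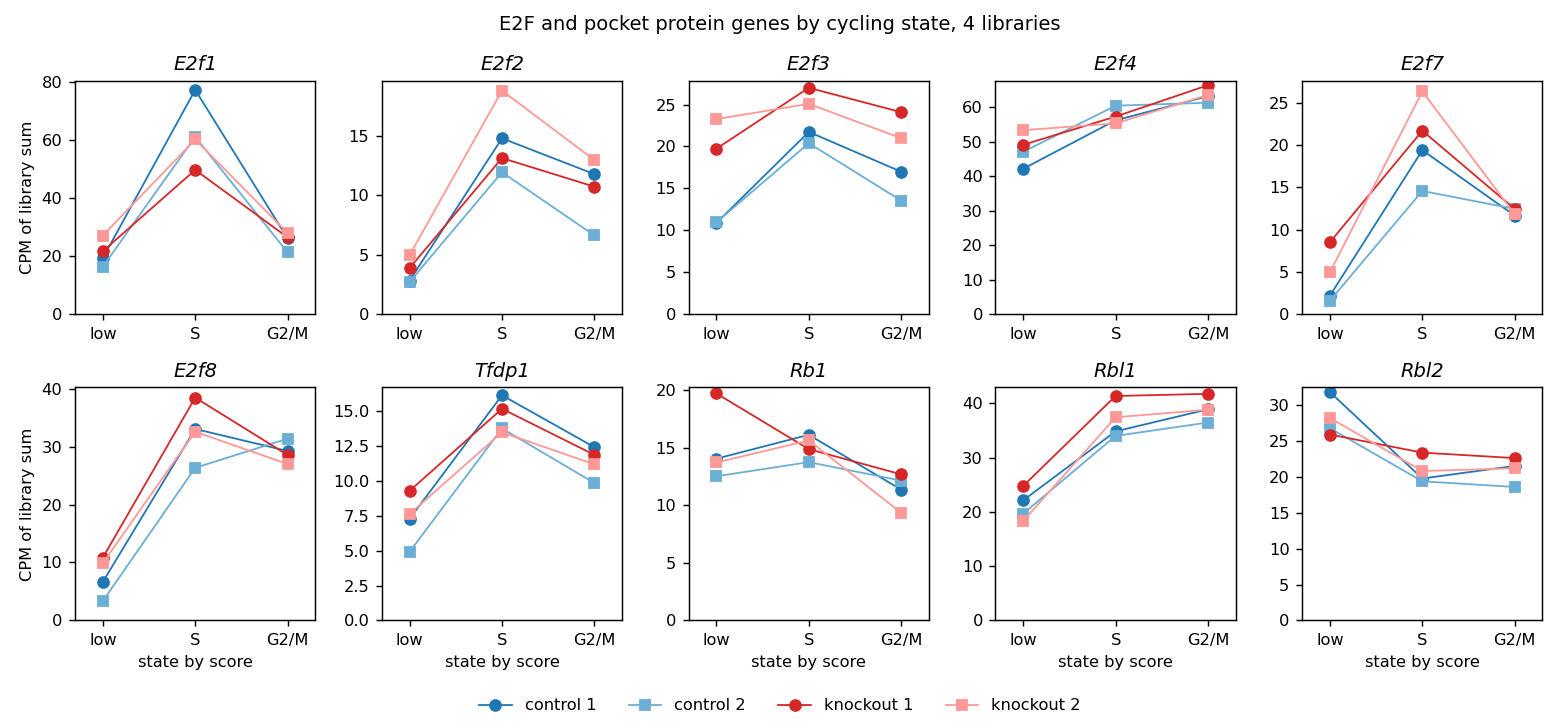
Level of each of the 10 members (CPM of the library sum, linear axes from 0 that differ between genes) in low-scored, S-scored and G2/M-scored cells, with 1 line for each of 2 control and 2 knockout libraries. E2f1 peaks in S-scored cells in every library, E2f2, E2f7, E2f8, Tfdp1 and Rbl1 are low in low-scored cells, and Rbl2 is highest there.

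Other genes of the pathway were compared in the same fit. Of 43 tested genes of a list of 44 (E2F and DP partners, E2F targets, the MuvB and DREAM complex, and the cyclins, kinases and inhibitors upstream), 30 were higher and 3 lower in S-scored cells, with all 20 E2F targets higher. That list is not independent of the states, since 12 of its genes, 11 of them E2F targets, are also among the scoring genes. Of genes outside the scoring lists, Ccne1, which encodes cyclin E1, rose by 2.11 in S-scored cells (adjusted p = 6.5e-05) and Cdkn1b, the p27 inhibitor, fell by 0.68 (adjusted p = 1.6e-05). E2f5, another repressor of the E2f4 kind, fell by 0.94 (adjusted p = 0.00023), the opposite direction from E2f4.

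The second axis was the progenitor type. Scored cells were gated by marker panels for stem, lymphoid, monocyte/DC, neutrophil, megakaryocyte, erythroid, basophil/mast, B and pDC cells, and cells in no gate are called unprimed. Gates are marker-positive cells within the LSK sort and not pure types. Defining genes followed the gates in part. Mpo ran from 1378 to 4411 CPM in neutrophil sums and from 7 to 99 CPM in megakaryocyte sums. It also reached 1208 CPM in monocyte/DC cells of control 1 and 1413 CPM in basophil/mast cells of knockout 2. Gata1 ran from 82 to 121 CPM in erythroid sums and from 53 to 107 CPM in megakaryocyte sums, against at most 19 CPM in unprimed sums. B-gated cells had 24 to 32 CPM of Kit, the receptor used in the sort, below the 75 to 123 CPM of unprimed cells. Lymphoid sums were also below unprimed cells, at 27 to 57 CPM of Kit. Ly6a, the gene of the sort marker Sca1, was higher in B-gated cells, at 2462 CPM in knockout 1 and 690 CPM in knockout 2. It ran from 185 to 322 CPM in unprimed sums. Each gate was compared with unprimed cells of the same libraries in 1 edgeR fit with library as a block, over sums of at least 20 cells.

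E2f2 in the B gate was the largest difference of any member. It stood at 73.1 CPM (44 UMIs, 74 cells) in knockout 1 and 103.9 CPM (255 UMIs, 186 cells) in knockout 2, against 12.6, 7.7, 11.0 and 10.3 CPM in unprimed cells of control 1, control 2, knockout 1 and knockout 2. The log2 difference was 3.29 ± 0.20 (adjusted p = 3e-16). Only knockout libraries had 20 B-gated cells, while controls held 6 and 7 B-gated cells with 1 and 0 UMIs of E2f2, so that no genotype comparison of E2f2 was made in this gate. Another 2 members passed there, Rb1 higher (1.23 ± 0.27, adjusted p = 0.00046) and Rbl2 lower (-0.64 ± 0.24, adjusted p = 0.042), for 3 of 10 against 25.8% of 10718 genes. The Rbl2 call was lost with DESeq2 (adjusted p = 0.068) and without control 2 (-0.66, adjusted p = 0.051).

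Rb1 in the B gate stood at 39.9 CPM (24 UMIs) in knockout 1 and 17.9 CPM (44 UMIs) in knockout 2, against 11.9 and 9.8 CPM in unprimed cells of the same libraries. The B gate was not uniform. Of the B-gated cells of knockout 2, 131 held a UMI of Igll1 or Vpreb1, the surrogate light chain genes of pro-B and pre-B cells, and E2f2 stood at 114.6 CPM in them and at 44.8 CPM in the other 55. In knockout 1 only 11 of 74 B-gated cells held one, and E2f2 stood at 71.9 CPM in them and 73.8 CPM in the other 63. Rb1 stood at 15.9 CPM (33 UMIs) in the cells with such a UMI and 29.0 CPM (11 UMIs) in the others in knockout 2, and at 4.2 CPM (1 UMI) and 62.9 CPM (23 UMIs) in knockout 1. Ms4a1, another marker of the B panel, stood at 627.2 CPM in the others in knockout 2 and 648.0 CPM in knockout 1. In the cells with such a UMI it stood at 16.4 and 38.1 CPM. This split was made after seeing the values and has no test. The genes whose level followed E2f2 most closely over 32 library by gate sums were Bfsp2 (Pearson r = 0.89), Vpreb1 (0.87) and Igll1 (0.85), out of 5998 genes, and those sums share libraries and include both B sums. Vpreb1 and Igll1 are markers of the B panel, so the gating itself made them high in the B sums, and their correlations are no independent result.

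In the erythroid gate 4 of 10 members passed, beside 32.3% of all genes. E2f8 stood at 50.1, 42.9, 66.6 and 46.2 CPM in control 1, control 2, knockout 1 and knockout 2, against 26.1, 19.5, 32.3 and 27.4 CPM in unprimed cells. No erythroid sum overlapped with an unprimed one, and the log2 difference was 0.99 ± 0.21 (adjusted p = 0.00058). Rb1, which erythroid cells are known to need for leaving the cell cycle, stood at 22.8, 40.2, 21.2 and 17.1 CPM against 14.5, 11.2, 11.9 and 9.8 CPM, also without overlap and with a log2 difference of 1.03 ± 0.23 (adjusted p = 0.00055). These sums are shallow, with 14 to 30 UMIs of Rb1 and 16 to 73 UMIs of E2f8 per library.

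E2f4, which fetal erythropoiesis is known to need, was 0.56 ± 0.13 higher in the erythroid gate (adjusted p = 0.0012), and E2f7 was lower by -0.87 ± 0.29 (adjusted p = 0.020). Without control 1 the E2f4 difference was 0.32 (adjusted p = 0.19). The E2f7 difference was -0.78 without control 1 (adjusted p = 0.13) and -0.86 without knockout 1 (adjusted p = 0.059). E2f7 and E2f8, both atypical repressors and both high in S-scored cells, differed from unprimed cells in opposite directions in this gate.

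The megakaryocyte gate shared the higher E2f8 and Rb1, its 2 members past the threshold against 12.5% of all genes. It held 178 and 21 cells in controls and 22 and 92 in knockouts, so the sums of control 2 and knockout 1 rest on few cells. E2f8 stood at 52.9, 37.9, 76.5 and 52.7 CPM in the 4 libraries, all above the unprimed values, with a log2 difference of 1.02 ± 0.21 (adjusted p = 0.0012). Rb1 stood at 23.1, 24.1, 31.7 and 13.3 CPM, overlapping with the unprimed range in 1 library, with a difference of 0.83 ± 0.24 (adjusted p = 0.017), which was 0.86 without control 1 (adjusted p = 0.087) and 0.66 without knockout 1 (adjusted p = 0.13). E2f7, in contrast to its erythroid level, was 0.61 ± 0.22 above unprimed cells there without passing (adjusted p = 0.068). Higher E2f8 was not limited to these 2 gates. In the basophil/mast gate, too small for the fit, E2f8 stood at 60.4, 110.9, 46.8 and 68.7 CPM in the same order of libraries. Those values rest on 4, 6, 11 and 33 UMIs in 13, 3, 7 and 24 cells, were all above the unprimed values and have no test.

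The neutrophil gate had 3 members past the threshold against 33.4% of all genes. E2f4 was 0.31 ± 0.10 higher (adjusted p = 0.015), E2f7 lower by -0.42 ± 0.15 (adjusted p = 0.025) and Rbl2 lower by -0.25 ± 0.10 (adjusted p = 0.049). Each call was lost without 1 or more of the libraries: E2f4 fell to 0.27 without control 1, 0.29 without control 2 and 0.24 without knockout 2, E2f7 stood at -0.45 without control 1 and -0.47 without knockout 1, and Rbl2 at -0.28 without control 1, -0.28 without control 2 and -0.23 without knockout 2. In the stem gate only Rbl2 passed, 1 of 10 against 4.7% of all genes. Rbl2 stood at 33.8, 30.8, 31.9 and 26.6 CPM in stem-gated cells against 25.3, 21.5, 21.6 and 22.4 CPM in unprimed cells, without overlap (0.35 ± 0.10, adjusted p = 0.033), and missed the threshold without control 1 (0.36, adjusted p = 0.073), control 2 (0.33, adjusted p = 0.20) or knockout 1 (0.31, adjusted p = 0.16). Low-scored cells, in which Rbl2 was higher, numbered 341 of 754, 261 of 372, 70 of 403 and 122 of 863 stem-gated cells. They numbered 974 of 2223, 176 of 354, 75 of 531 and 120 of 1426 unprimed cells, a smaller share in each library. Among cycling cells alone Rbl2 did not pass in the stem gate. The part of the low-scored share in the Rbl2 difference was not tested. No member passed in the lymphoid gate, where 10.2% of all genes did, or in the monocyte/DC gate, where 8.57% did.

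**Figure D2:**
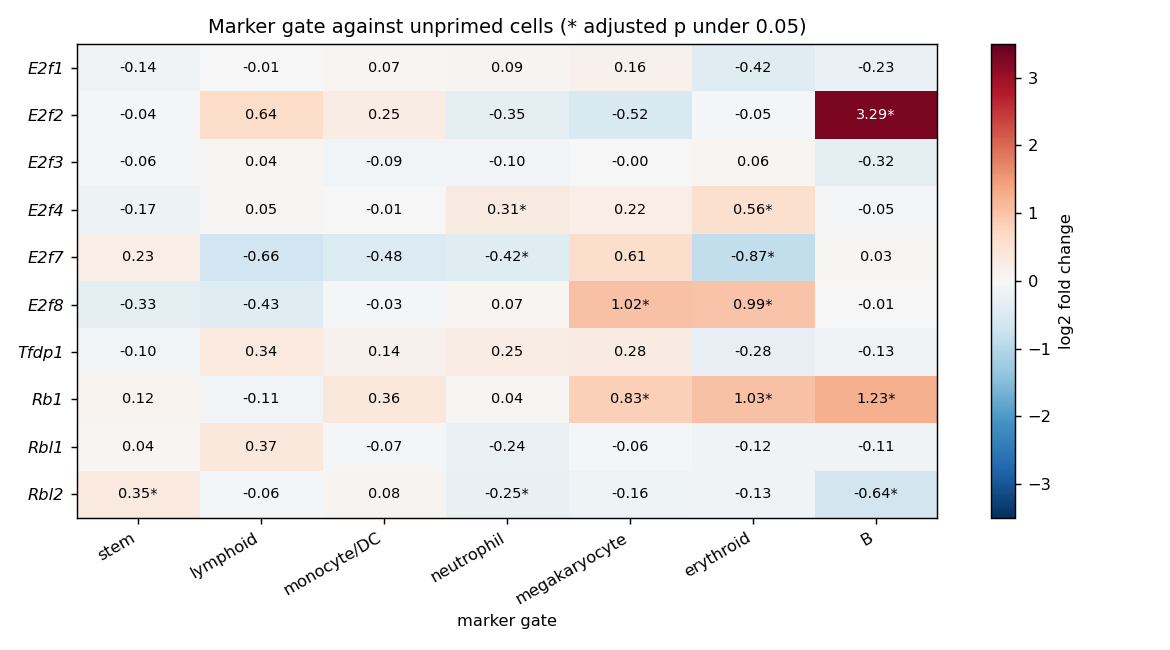
Log2 fold change of each of the 10 members in each of 7 marker gates against unprimed cells of the same libraries, with color for the size and an asterisk for an adjusted p under 0.05. The B column rests on 2 knockout libraries. E2f2 in the B gate (3.29), E2f8 and Rb1 in the megakaryocyte and erythroid gates and Rb1 in the B gate stand out.

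**Figure D3:**
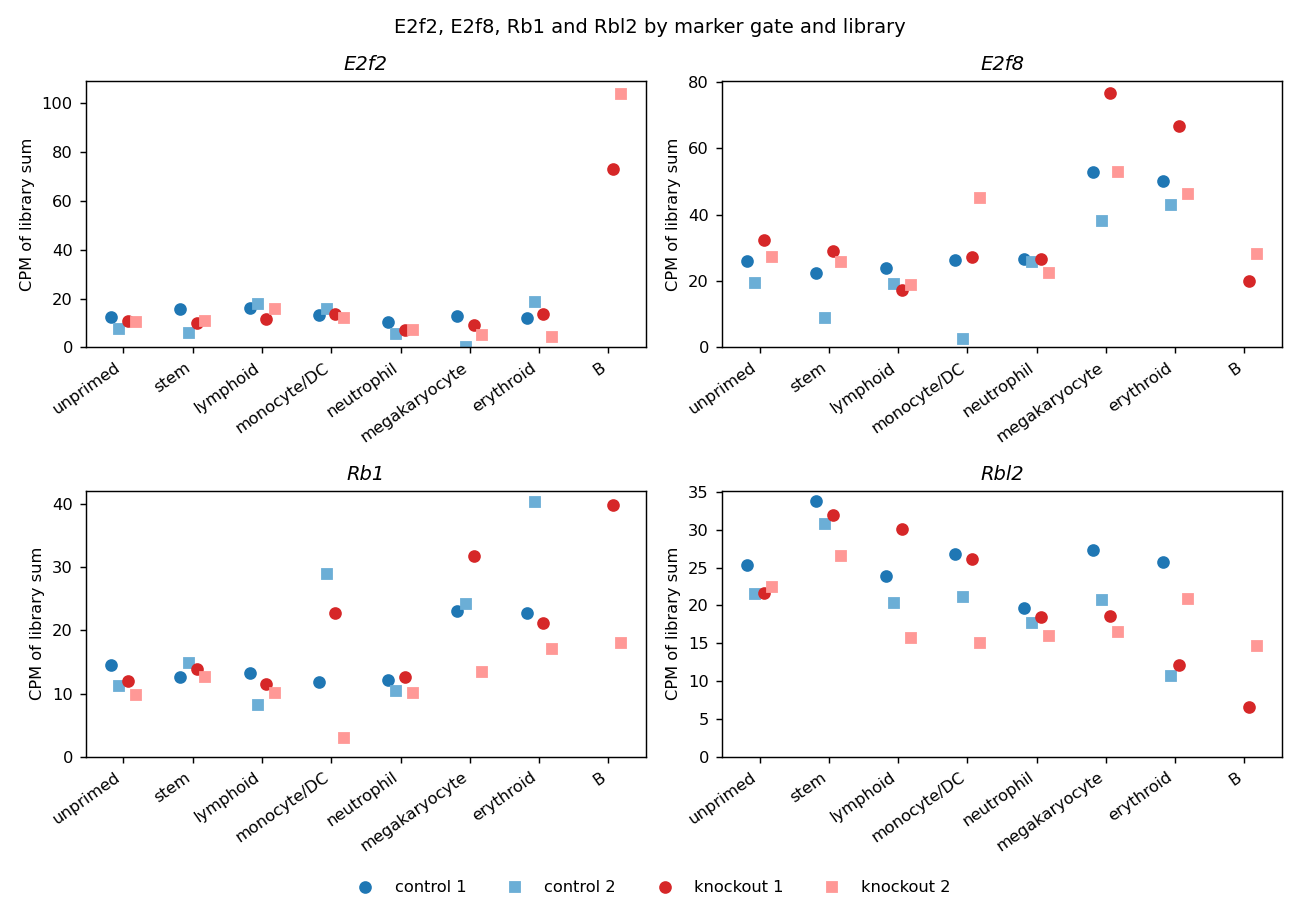
CPM of the library sum (linear axes from 0) for E2f2, E2f8, Rb1 and Rbl2 in unprimed cells and 7 marker gates, with 1 point for each library that held at least 20 cells in the gate. The 2 B-gate values of E2f2, 73.1 and 103.9 CPM, lie above all other E2f2 values shown.

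Gates were compared again among S-scored and G2/M-scored cells alone. E2f2 in the B gate differed by 3.34 ± 0.15 (adjusted p = 1.4e-20), and E2f8 by 0.80 ± 0.15 in the erythroid (adjusted p = 9.2e-05) and 0.82 ± 0.15 in the megakaryocyte gate (adjusted p = 0.00016). Rb1 remained higher in both of these gates (0.85 ± 0.22, adjusted p = 0.0026, and 0.76 ± 0.22, adjusted p = 0.020) and in the B gate (0.90 ± 0.25, adjusted p = 0.0071), although the erythroid call missed the threshold without control 1 (0.78, adjusted p = 0.083), as did the megakaryocyte call (0.77, adjusted p = 0.16), which also missed it without knockout 1 (0.54, adjusted p = 0.24). Past the threshold were 5 members in the erythroid gate against 27.9% of all genes, 4 in the neutrophil gate against 31.1%, 3 in the B gate against 24.5%, 2 in the megakaryocyte gate against 10.3% and 1 in the lymphoid gate against 10.4%. None passed in the stem gate, where 4.12% of genes did, or in the monocyte/DC gate, where 6.37% did.

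Among cycling cells, 3 members were lower in the neutrophil gate than in unprimed cells. E2f2 was lower by -0.56 ± 0.12 (adjusted p = 0.00058), E2f7 by -0.63 ± 0.12 (adjusted p = 6.5e-05) and Rbl1 by -0.36 ± 0.10 (adjusted p = 0.0040), while E2f4 was higher by 0.25 ± 0.08 (adjusted p = 0.024), a call lost without control 1 (0.25), control 2 (0.21) or knockout 2 (0.18). E2f1 was lower in the erythroid gate by -0.67 ± 0.18 (adjusted p = 0.0042), and by -0.46 without knockout 2 (adjusted p = 0.13). E2f7 was lower in the lymphoid gate by -0.93 ± 0.28 (adjusted p = 0.023), which was -0.77 without control 1, -1.07 without knockout 1 and -0.55 without knockout 2, none past the threshold. Cycling erythroid, megakaryocyte and monocyte/DC cells of control 2 numbered under 20, so those comparisons rest on 3 libraries.

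The third axis was the genotype. Over all LSK cells none of the 10 members passed the threshold, against 3.29% of 13779 genes, and none passed with DESeq2. The median difference of the members, knockout over control, was 0.15 on the log2 scale beside -0.01 over all genes. E2f3 differed most, with 17.4 and 14.9 CPM in controls and 24.7 and 22.1 CPM in knockouts, groups that did not overlap. Its difference was 0.49 ± 0.15 (95% interval 0.13 to 0.85, adjusted p = 0.13), and 0.58 without control 1.

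For the other activators the all-cell comparison gave an interval on both sides of 0. E2f1 stood at 39.4 and 32.4 CPM in controls and 33.7 and 36.3 CPM in knockouts, a difference of -0.08 (95% interval -0.43 to 0.28). E2f2 stood at 11.5 and 7.0 CPM against 11.1 and 14.3 CPM, a difference of 0.40 (-0.19 to 1.00). Without the B and pDC gates, which held 74 and 186 B-gated and 18 and 38 pDC-gated cells in the knockouts against 6 and 7 B-gated and 2 and 0 pDC-gated cells in the controls, E2f2 differed by 0.06.

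Of the repressors, E2f4 differed by 0.06 (-0.26 to 0.37), E2f7 by 0.42 (0.01 to 0.82, adjusted p = 0.22) and E2f8 by 0.24 (-0.16 to 0.64), with E2f7 at 12.5 and 9.5 CPM in controls and 15.2 CPM in each knockout. Without control 1, the library with the most cells, the differences of E2f2, E2f7 and E2f8 were 0.79, 0.61 and 0.44. In that fit control 2 stood alone and was taken to vary like the knockouts. Tfdp1 differed by 0.09 (-0.34 to 0.52). The pocket protein genes were close: Rb1 differed by -0.08 (-0.48 to 0.32), Rbl1 by 0.20 (-0.14 to 0.54) and Rbl2 by -0.02 (-0.35 to 0.31). In sums over all LSK cells, a difference in the make-up of the cells and a difference in the level per cell cannot be told apart.

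Among the 44 pathway genes only Ccnd1, the cyclin D1 gene that drives Rb1 phosphorylation with Cdk4 and Cdk6, passed over all LSK cells. It stood at 11.0 and 12.8 CPM in controls and 49.2 and 51.4 CPM in knockouts (2.04 ± 0.16, adjusted p = 0.0063). The median of the list was 0.13. The count of pathway genes past the threshold was 5 with DESeq2 and 7 without a filter on low counts. Over all genes the count rose as well, from 453 in the main fit to 886 and 1933 in these runs.

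The share of low-scored cells differed between libraries beside these values. Low-scored cells took 26.4% and 48.4% of scored cells in controls and 17.0% and 10.3% in knockouts. These shares did not overlap, but the exact two-sided permutation test of 2 against 2 libraries cannot go below 0.33, which is the p it gave. Without barcodes found in more than 1 library, which leaves 110 scored cells in control 2, the shares did overlap, at 33.3% and 72.7% in controls and 51.5% and 36.6% in knockouts. G2/M-scored cells took 44.3% and 24.9% in controls and 49.1% and 58.8% in knockouts. Members were compared by genotype within each state as well.

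In low-scored cells 2 of 10 members rose in the knockout, against 7.83% of 11233 genes called and 4.19% called higher. E2f3 stood at 10.9 CPM in each control (85 and 69 UMIs) and at 19.7 and 23.3 CPM in knockouts (51 and 61 UMIs), about the level of S-scored control cells, 21.7 and 20.4 CPM. The difference was 0.97 ± 0.23 (edgeR adjusted p = 0.031). E2f7 stood at 2.2 and 1.6 CPM in controls (17 and 10 UMIs) and 8.5 and 5.0 CPM in knockouts (22 and 13 UMIs), a difference of 1.81 ± 0.46 (adjusted p = 0.037). E2f8 did not pass, at 6.6 and 3.3 CPM in controls and 10.8 and 9.9 CPM in knockouts (1.03 ± 0.36, adjusted p = 0.11).

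With DESeq2 neither call held (adjusted p = 0.18 for E2f3 and 0.17 for E2f7), and without knockout 1 neither did (1.07, adjusted p = 0.086, and 1.36, adjusted p = 0.35), nor did E2f3 without knockout 2 (0.86, adjusted p = 0.22). E2f3 also missed the threshold with states scored on unthinned counts (0.90, adjusted p = 0.064) and without barcodes found in more than 1 library (1.23, adjusted p = 0.16), settings in which E2f7 fell under the count filter, and E2f7 missed it without cells over 3 times the median UMIs (1.49, adjusted p = 0.069). Low-scored knockout cells also differed in other ways. B or pDC gates held 25.0% and 16.7% of them against 0.2% and 0.867% in controls, 38.3% and 40.3% lay within 0.05 of a state cut against 27.5% and 23.7%, and the summed S-phase scoring genes stood at 2419 and 2577 CPM against 1836 and 1526 CPM. Without B and pDC gates E2f3 differed by 1.03 (adjusted p = 0.027) and E2f7 by 1.99 (adjusted p = 0.029), and without cells near a cut E2f3 differed by 1.14 (adjusted p = 0.033) while E2f7 fell under the count filter. Of low-scored cells, 552 of 2000 and 102 of 577 were neutrophil-gated in controls, against 28 of 256 and 13 of 330 in knockouts. The parts of the higher S-phase score and of the neutrophil share in the differences were not tested.

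Of 43 pathway genes tested in low-scored cells 14 rose and 1 fell, with 9 of 20 E2F targets among those that rose and 6 of the 14 also among the scoring genes. Ccna2 rose by 2.72 ± 0.37 (adjusted p = 0.0018), Ccnd1 by 2.45 ± 0.20 (adjusted p = 9.3e-05), Mybl2 by 1.99 ± 0.33 (adjusted p = 0.0055), Rrm2 by 1.87 ± 0.25 (adjusted p = 0.0016), Ccne2 by 1.83 ± 0.34 (adjusted p = 0.010) and Uhrf1 by 1.19 ± 0.24 (adjusted p = 0.013). Rrm2, Ccne2 and Uhrf1 are S-phase scoring genes, so their rises are not independent of how the cells were scored. Ccna2, Ccnd1 and Mybl2 are in neither scoring list, which does not by itself make their rises independent of the scoring. The summed G2/M scoring genes too were higher in low-scored knockout cells, at 2914 and 2781 CPM against 1967 and 1784 CPM in controls. The part of this in the rises was not tested. Cdkn1b fell by 0.75 (adjusted p = 0.033), from 93.4 and 98.8 CPM in controls to 65.4 and 50.3 CPM in knockouts. The median over the list was 0.41 beside -0.01 over all genes.

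In S-scored and G2/M-scored cells no member passed, against 5.14% and 4.03% of all genes. E2f3 differed by 0.23 ± 0.15 in S-scored cells (adjusted p = 0.43) and by 0.48 ± 0.17 in G2/M-scored cells (adjusted p = 0.16), where it stood at 17.0 and 13.5 CPM in controls and 24.1 and 21.0 CPM in knockouts without overlap. E2f1 in S-scored cells stood at 77.4 and 61.2 CPM in controls and 49.8 and 60.3 CPM in knockouts (-0.41 ± 0.16, adjusted p = 0.19). In S-scored and G2/M-scored cells together, neutrophil-gated cells numbered 3312 and 250 in controls and 320 and 398 in knockouts. Unprimed cells there numbered 1249 and 178 against 456 and 1306. The part of this in the genotype differences within these states was not tested. A test of the difference between states, by the interaction term, passed for 3 of 10 members in S-scored against low-scored cells (E2f1, E2f3 and E2f7, beside 11.6% of genes) and for 2 of 10 in G2/M-scored against low-scored cells (E2f7 and E2f8, beside 17.2%). Of 13 upstream cyclins, kinases and inhibitors tested, 2 were higher and 1 lower in S-scored cells, and 3 were higher and 1 lower in G2/M-scored cells. Ccnd1 rose by 1.60 in S-scored (adjusted p = 0.00092) and 2.71 in G2/M-scored cells (adjusted p = 0.0012), and Cdkn1c, the p57 inhibitor, rose by 1.71 (adjusted p = 0.0045) and 1.59 (adjusted p = 0.013). Ccnd2, another D-type cyclin gene, rose by 0.99 in G2/M-scored cells (adjusted p = 0.015). Cdkn1b fell by 0.59 in S-scored cells (adjusted p = 0.049), and Cdkn2c, the p18 inhibitor of Cdk4 and Cdk6, fell by 1.22 in G2/M-scored cells (adjusted p = 0.041).

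**Figure D4:**
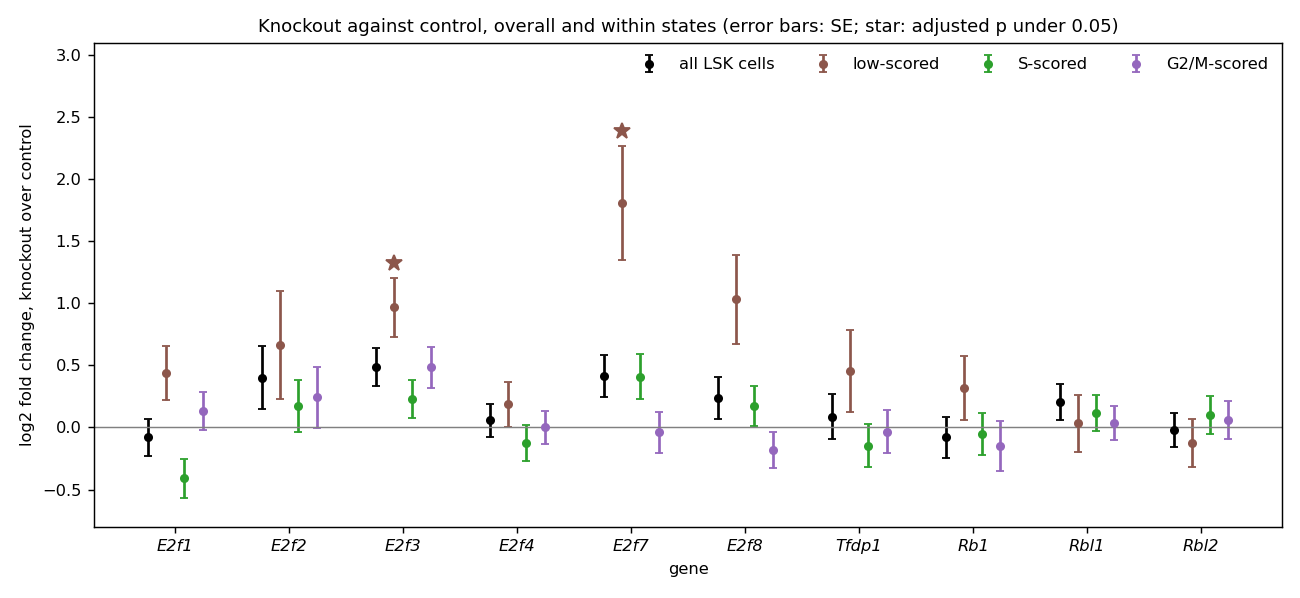
Log2 fold change of knockout over control for each member over all LSK cells and within low-scored, S-scored and G2/M-scored cells, with SE bars and a star for an adjusted p under 0.05. Stars stand over E2f3 (0.97) and E2f7 (1.81) in low-scored cells and over no other value.

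Within marker gates held by all 4 libraries, 1 of 63 tests of a member passed: E2f3 in unprimed cells, where 8.92% of 11915 genes were called. E2f3 stood there at 15.5 and 17.2 CPM in controls and 28.1 and 23.3 CPM in knockouts, without overlap (0.69 ± 0.19, adjusted p = 0.049). It missed the threshold with DESeq2 (adjusted p = 0.093), without control 1 (0.54, adjusted p = 0.089), knockout 1 (0.58, adjusted p = 0.37) or knockout 2 (0.81, adjusted p = 0.27). Low-scored cells numbered 974 of 2223 and 176 of 354 unprimed cells in controls, against 75 of 531 and 120 of 1426 in knockouts. The part of this in the E2f3 difference was not tested. In the other gates the E2f3 difference was 0.36 in stem, 0.40 in neutrophil, 0.62 in erythroid, 1.01 in lymphoid, 0.08 in megakaryocyte and -0.16 in monocyte/DC cells, none past the threshold. In the neutrophil gate the cells themselves differed by genotype, with Mpo at 4411 and 3433 CPM in controls and 1444 and 1378 CPM in knockouts. Summed panel genes were lower in knockouts in other gates too. They stood at 3757 and 3411 against 1730 and 2602 CPM in the erythroid gate and 2443 and 2236 against 1456 and 1681 CPM in the megakaryocyte gate. In the stem gate they stood at 860 and 749 against 572 and 567 CPM. Lymphoid and monocyte/DC panel sums overlapped between genotypes. The part of these differences in the genotype comparisons within gates was not tested. No member passed in stem cells (8.29% of genes called), neutrophil cells (4.58%), lymphoid cells (1.53%), megakaryocyte cells (0.542%), erythroid cells (0.513%) or monocyte/DC cells (0.451%). In stem-gated cells E2f1 stood at 31.1 and 22.1 CPM in controls and 38.9 and 40.0 CPM in knockouts, the next largest member difference by its test (0.60 ± 0.19, adjusted p = 0.074). Of stem-gated cells, 341 of 754 and 261 of 372 were low-scored in controls, against 70 of 403 and 122 of 863 in knockouts. The part of this in the E2f1 difference was not tested.

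Over the 32 library by gate sums, the genes whose levels most resembled those of the other members were Siva1 for E2f1 (Pearson r = 0.67), Bclaf1 for E2f3 (0.82), Tmem14c for E2f4 (0.82), Tbc1d1 for E2f7 (0.70), Prkag1 for E2f8 (0.83), Slf1 for Tfdp1 (0.73), Ngly1 for Rb1 (0.75), Clspn for Rbl1 (0.77) and Atp11b for Rbl2 (0.84). These are the highest of 5998 correlations each, over sums that share libraries and depth, and are given as a description. Tmem14c and Clspn are textbook erythroid heme and replication checkpoint genes.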

How the data were processed

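LSK cells were profiled with 10x 3′ single-cell libraries. Per the labels, the authors ran Cell Ranger 3.1 against mm10, and the deposited matrices hold UMI counts per gene and cell, 1 matrix per library, with no other normalization. Strand use in counting is not given in the sources used here. Cells were required to have at least 200 detected genes and no more than 10% of UMIs from mitochondrial genes, and barcodes with at least 3 times as many UMIs under the same sequence in another library were left out as copies. Doublets were not called. Medians of 2387, 3600.5, 4254 and 3861 genes per cell remained in control 1, control 2, knockout 1 and knockout 2. Cell cycle scores came from scanpy 1.11.5 on cells thinned to 2000 UMIs, and 19.7% of scored cells lay within 0.05 of a cut. A cell entered a marker gate with at least 3 UMIs of at least 2 panel genes and a panel level over a fixed cut per 10000 UMIs, the strongest gate won where several applied, and the stem gate took only cells in no other gate. Gates used unthinned counts. Median UMIs per kept cell were 6251, 13175.5, 17707 and 14398.5 in control 1, control 2, knockout 1 and knockout 2. In the same order, 21.8%, 9.82%, 7.12% and 5.73% of scored cells passed more than 1 gate.

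UMIs were summed per library, or per library and state or gate with at least 20 cells, and tested in edgeR 4.0.16 (R 4.3.3) with filterByExpr, TMM scaling, robust quasi-likelihood fits and Benjamini-Hochberg adjustment over all genes tested at 0.05. SE is the log2 fold change divided by the square root of F. States and gates were compared with library as a block. For genotype, p-values measure only the spread between these 4 libraries. For states, gates and interactions, they measure only the scatter of library by group sums left after the library term, pooled over the groups. The B gate p-values thus rest on the knockout B sums alone, with scatter estimated over all gates. The fits were tested on simulated counts. The genotype fit over all LSK cells recovered 65.3% of changes of 1 on the log2 scale and 97% of changes of 2. Changes of 1 were recovered at 88% for S-scored against low-scored cells and 99% for the neutrophil gate. False calls made up 3.01%, 5.56% and 2.93% of calls in these fits. The simulated libraries shared a mean profile, every gene of a fit had the same dispersion, and only genes above a count floor were changed. These rates therefore do not cover the spread between the real libraries. State shares had an exact permutation test. Replicate numbers pair no animals in the labels.

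The genes named are the 10 members, the pathway genes past the threshold with the largest change, and for each member the genes most like it by Pearson's r of log2(CPM + 10) among genes with a mean of at least 20 CPM. The members and lists were chosen with earlier results of these data known. The E2f2 split of the B gate, 3 alternatives, 5 for the state shares and the S-scored against G2/M-scored comparison were added after the data were seen. Basophil/mast and pDC gates reached 20 cells in knockout 2 alone and were left out of the gate fit. DESeq2 1.42.0, other filters, other state and gate settings and each library left out were tried as alternatives.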

Additional observations from a re-analysis of the deposited data

Results flagged for a closer look

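The genotype difference itself differed between states for 4 members, by the interaction term of an edgeR fit over all 12 library by state sums. In S-scored minus low-scored cells 3 of 10 members passed, against 11.6% of 12674 genes: E2f1 (-0.84 ± 0.17, log2, SE; adjusted p = 0.00060), E2f3 (-0.72 ± 0.21, adjusted p = 0.017) and E2f7 (-1.40 ± 0.41, adjusted p = 0.021). In G2/M-scored minus low-scored cells 2 of 10 passed, against 17.2% of genes: E2f7 (-1.78 ± 0.42, adjusted p = 0.0021) and E2f8 (-1.11 ± 0.30, adjusted p = 0.0098). Each value is negative, so the knockout over control difference was larger in low-scored cells. The 2 of 10 in the G2/M contrast is near the share over all genes. The pattern was not particular to the members. In the same fit 18 of 20 E2F targets passed as lower in the S-scored contrast (median -0.71) and 17 of 20 in the G2/M contrast (median -0.51). Of these 20 targets, 11 are scoring genes.

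For E2f1 the knockout over control difference was 0.44 in low-scored and -0.41 in S-scored cells, neither past its own threshold, and for E2f8 it was 1.03 in low-scored and -0.18 in G2/M-scored cells. E2f3 stood at 10.9 CPM in each low-scored control and 19.7 and 23.3 CPM in low-scored knockouts, against 21.7 and 20.4 CPM and 27.0 and 25.1 CPM in S-scored cells. Low-scored knockout cells lay near a state cut more often and held more of the S-phase and G2/M scoring genes than low-scored control cells. A smaller share of them was neutrophil-gated. The summed G2/M scoring genes stood at 2914 and 2781 CPM in low-scored knockout cells against 1967 and 1784 CPM in controls. In G2/M-scored cells the same genes stood at 8992 and 9889 CPM in knockouts against 10665 and 10874 CPM in controls. The part of these differences in the interaction was not tested. With cells near a cut left out, E2f1 differed by -0.25 (adjusted p = 0.73), the G2/M value of E2f8 turned to 0.036 (adjusted p = 0.99) and the S-scored value of E2f7 was -1.90 (adjusted p = 0.068). With states scored on unthinned counts, or without barcodes found in more than 1 library, 0 of these interactions passed. E2f1 also missed the threshold with states on cells thinned to 1000 UMIs (-0.36, adjusted p = 0.19). E2f7 missed the threshold without knockout 1 in both contrasts (-0.89, adjusted p = 0.38, and -1.42, adjusted p = 0.086) and without control 1 in the S-scored contrast (-1.37, adjusted p = 0.16). E2f3 missed it without control 1 (-0.65, adjusted p = 0.17) or knockout 2 (-0.56, adjusted p = 0.26), and E2f8 without knockout 1 (-1.13, adjusted p = 0.095) or knockout 2 (-1.15, adjusted p = 0.075).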

How the results depend on the processing

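Of 85 single-gene results, 33 kept their side of the threshold in every alternative run that tested them. A change of direction was counted only where the main or the alternative run passed the threshold. The 10 members gave 18 calls between cycling states, 13 between gates, 15 between gates of cycling cells, 5 between S-scored and G2/M-scored cells, 5 interactions, 2 genotype calls within states, 1 within gates and 0 over all LSK cells, where 1 pathway gene and 453 genes in all passed. Leaving out each barcode found in more than 1 library, which leaves few cells in control 2, gave 11 calls between states, 2 between gates, 1 between S-scored and G2/M-scored cells, 0 interactions, 0 genotype calls within states or gates and 196 genes. Fewer member tests could be run there: 24 against 70 between gates, and 22 against 63 by genotype within gates and 27 against 30 within states. Leaving out cells over 3 times the median UMIs gave 1 call within states, 3 interactions and 285 genes. Scoring states on unthinned counts gave 0 calls within states and 0 interactions, and leaving out cells near a cut gave 1 and 2. DESeq2 gave 0 calls within states, 0 within gates, 2 between S-scored and G2/M-scored cells, 5 pathway genes and 886 genes. Without a filter on low counts these were 4 within gates, 3 between S-scored and G2/M-scored cells, 7 pathway genes and 1933 genes. Gates of 3 distinct markers gave 0 genotype calls in 30 tests within gates, gates on thinned cells 2 in 29 tests and library totals only 0 in 63 tests. Copied barcodes included gave 3 pathway genes. The cause of these changes was not tested. E2f8 turned to 0.036 in the G2/M interaction without cells near a cut, and E2f2 to -0.19 between S-scored and G2/M-scored cells without shared barcodes.

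With each library left out, calls ranged from 16 to 18 between states, 6 to 12 between gates, 8 to 14 between gates of cycling cells, 1 to 4 between S-scored and G2/M-scored cells, 3 to 6 for interactions, 0 to 4 within states, 0 to 6 within gates and 0 to 4 over all LSK cells, with 1 to 18 pathway genes and 344 to 3158 genes. The low-scored share differed by -23.8 percentage points, from -34.8 to -12.7 with a library left out, and from -26.8 to -17.98 under the other alternatives except -8.99 without barcodes found in more than 1 library, where the genotypes overlapped.

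Same-numbered libraries did not deviate together (correlation -0.18 over 11453 genes). With the replicate block, member calls were 0 over all LSK cells, 2 within states and 1 within gates, with 6 pathway genes and 1288 genes, and the crossed replicate block gave 1, 3, 2, 13 and 2200.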
